A study of Oncorhynchus mykiss with 6 samples.

Results

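The miRNA families miR-143, miR-145, miR-199 and miR-214, which are known from the supporting (stromal) cells of vertebrate organs, were followed in the head kidney of rainbow trout (Oncorhynchus mykiss) at 2 temperatures. They were chosen by name: each row of the deposited table with an Atlantic salmon (ssa) name and one of these 4 family numbers was taken, with any letter and either arm. This gave 8 of the 1381 rows, the 5p and 3p arms of 4 hairpins (miR-143, miR-145, miR-199a and miR-214), and all 8 had enough counts to be tested. The head kidney is an organ of blood formation and immunity in teleosts, and 1 small RNA library was made per fish. The control group held 3 females aged 1 year kept at 18 °C, and the heat-treated group 3 females of the same age kept at 24 °C. The sources used here name no genetic alteration, no strain and no length of heat treatment, and the comparison asks which miRNAs differ under heat stress.

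A miRNA is cut from a hairpin whose 2 strands, the 5p and the 3p arm, can each be loaded into the silencing complex, where bases near its start (the seed) pair with target mRNAs and repress them. In mammals miR-143 and miR-145 come from 1 primary transcript that serum response factor and myocardin switch on in smooth muscle, and they help to keep those cells contractile. miR-199a and miR-214 come from another shared transcript, made from the strand opposite a dynamin 3 intron, and in mouse it is active in mesenchyme and fibroblasts under the factor Twist1. The first 2 families are called the smooth muscle pair below and the other two the fibroblast pair, names that come from these other species.

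Library totals ran from 3753036 to 5156793 counts, and the TMM factors that scale the libraries to each other ran from 0.942 to 1.05. Levels are given as CPM, counts scaled by TMM to a common library total. Markers of other cells of the organ were present: the vessel miRNA miR-126-3p averaged 88932 ± 13544 CPM (SD, n = 3) in control and 94334 ± 7675 CPM (n = 3) in heat libraries, and the sum of the leukocyte list (7 rows of miR-142, miR-150 and miR-155) ran from 9590.0 to 17031 CPM at 18 °C and from 13832 to 17472 CPM at 24 °C. The kidney tubule list (miR-192, miR-194 and miR-204; 8 rows) ran from 2115 to 2993 CPM and from 1763 to 2548 CPM. A lower level in whole tissue can come from fewer cells of a type or from less RNA per cell, and these cannot be told apart here.

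miR-143-3p (ssa-miR-143-3p) was the most abundant of the 8 and, by mean CPM, number 6 of all rows. It was followed by miR-199a-5p (number 27), miR-199a-3p (45), miR-145-5p (48) and miR-145-3p (60), while both arms of miR-214 (110 and 118) and miR-143-5p (124) were scarcer. miR-143-3p was at 62803, 39422 and 58338 CPM in control replicates 1, 2 and 3, and at 40349, 52943 and 29118 CPM in heat replicates 1, 2 and 3. Control replicate 2 and heat replicate 3 were the 2 lowest libraries, 1 from each group, and the groups overlapped. The control mean of 53521 ± 12413 CPM and the heat mean of 40803 ± 11919 CPM (SD, n = 3 each) gave a log2 fold change of -0.39 with an SE of 0.26 (95% interval -1.01 to 0.23). It did not pass the threshold of 0.05 on the p adjusted over all tested rows (edgeR quasi-likelihood adjusted p = 0.73). The log2 fold change was -0.65 when either control replicate 2 or heat replicate 2 was left out and -0.26 when either control replicate 1 or heat replicate 3 was left out, and it passed in none of these (edgeR adjusted p from 0.53 to 0.92). The count behind the lowest library was 131351 reads, for which counting error is 0.276% of the value, far below the spread between fish.

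The other arm of this hairpin, miR-143-5p, is the minor product. It was at 214.2, 237 and 143.05 CPM in the control libraries and at 190.6, 160.5 and 178.9 CPM in the heat libraries. Each heat library lay inside the control range. Its log2 fold change was -0.17 ± 0.25 (edgeR adjusted p = 0.92).

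miR-145, which in mouse and human smooth muscle represses the pluripotency-linked factor Klf4, was counted from both arms. miR-145-5p was at 3083, 3000.3 and 3092 CPM in the control libraries and at 3185, 2933 and 2339 CPM in the heat libraries. The control fish were nearly equal and 1 heat fish, replicate 3, lay well below the other libraries. The means of 3058 ± 50.7 and 2819 ± 434 CPM gave a log2 fold change of -0.12 ± 0.16 (95% interval -0.50 to 0.26; edgeR adjusted p = 0.90).

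miR-145-3p was at 1827, 1867 and 1742 CPM in the control libraries and at 1508, 1614 and 1099 CPM in the heat libraries. It was the 1 member of the 8 whose groups did not overlap, with every heat library below every control library. Of all 537 tested rows, 5.96% were lower at 24 °C without overlap, and 12.8% did not overlap in either direction, so a count of 1 in 8 is near that background. The means were 1812 ± 63.9 and 1407 ± 272 CPM, with a log2 fold change of -0.36 ± 0.19 (95% interval -0.80 to 0.07; edgeR adjusted p = 0.63).

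The 3 control fish varied little in miR-145 although they varied in miR-143-3p. The coefficient of variation (SD over mean) in the control group was 1.66% for miR-145-5p and 3.53% for miR-145-3p, against 23.2% for miR-143-3p. Among the 74 rows with a mean of at least 1000 CPM the median was 16.0%, and miR-145-5p and miR-145-3p had the second and the fifth lowest values. Counting error alone was at most 0.973% for miR-145-5p, a value from heat replicate 3, where its count was lowest. In the heat group the coefficients were 15.4% and 19.3%, beside a median of 14.8% for the same 74 rows. Over the 3 fish of each group, the low spread of miR-145 was thus seen in the control group only. Heat replicate 3 was the lowest library for both arms, at 2339 and 1099 CPM. Heat replicates 1 and 2 were at 3185 and 2933 CPM for miR-145-5p and at 1508 and 1614 CPM for miR-145-3p. A coefficient from 3 fish is imprecise, and the difference in spread between the groups was not tested.

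**Figure D1:**
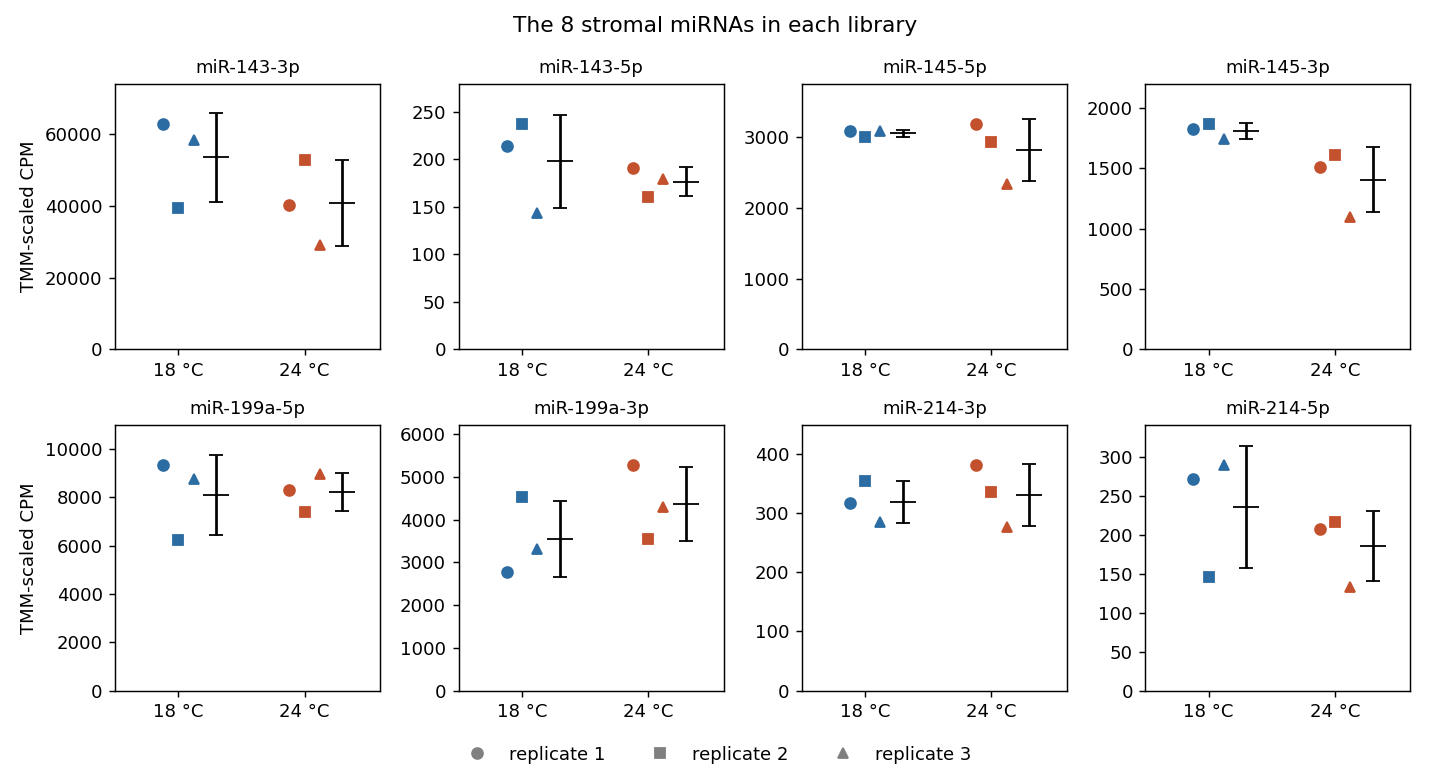
TMM-scaled CPM (y axis, from 0) of each member in the 3 control libraries at 18 °C and the 3 heat libraries at 24 °C, with points for fish and a bar for the mean and SD. The 2 groups overlap in each panel except miR-145-3p, where the control libraries lie between 1742 and 1867 CPM and the highest heat library at 1614 CPM.

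In the fibroblast pair, miR-199a-5p was the more abundant arm of miR-199a. It was at 9311, 6223 and 8764 CPM in the control libraries and at 8280.5, 7390 and 8962 CPM in the heat libraries. The lowest and the highest library were both control fish. The means of 8099 ± 1648 and 8211 ± 788 CPM differed by a log2 fold change of 0.02 ± 0.19 (95% interval -0.42 to 0.46; edgeR adjusted p = 0.996), whose sign depended on the scaling (-0.0022 with DESeq2 size factors).

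miR-199a-3p, the opposite strand, was at 2788, 4533 and 3318 CPM in the control libraries and at 5270.0, 3547 and 4302 CPM in the heat libraries. Heat replicate 1 was the highest library and control replicate 1 the lowest, and control replicate 2 lay above 2 of the heat libraries. Its log2 fold change of 0.30 ± 0.23 was the most positive of the 8 (95% interval -0.24 to 0.85; edgeR adjusted p = 0.77).

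The arms of miR-214, a miRNA that in zebrafish tunes the Hedgehog response of early muscle through Sufu, were scarcer. miR-214-3p was at 316.4, 354.3 and 283.8 CPM in the control libraries and at 380.1, 335.7 and 275.8 CPM in the heat libraries, with the heat group holding both extremes. Its log2 fold change was 0.06 ± 0.21 (95% interval -0.43 to 0.54; edgeR adjusted p = 0.96). miR-214-5p was at 271.9, 146.4 and 289.2 CPM in the control libraries and at 207.6, 216 and 133.5 CPM in the heat libraries. The low libraries were control replicate 2 and heat replicate 3, the same 2 fish that were lowest for miR-143-3p. Its log2 fold change was -0.35 ± 0.33 (95% interval -1.12 to 0.43; edgeR adjusted p = 0.84). It was -0.68 without control replicate 2 and -0.22 without control replicate 3 or heat replicate 3, and passed in none of these fits.

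No member passed the test in either direction, where 0.186% of the 537 tested rows passed (1 row, higher at 24 °C). With edgeR 0 of the 8 had an unadjusted p under 0.05, against 6.52% of all tested rows. On the adjusted p 0 of the 8 passed with DESeq2, where 2 of all tested rows passed as higher and 3 as lower. With limma-voom 0 of the 8 passed, where 1 of all tested rows passed as higher and 0 as lower. All 4 arms of the smooth muscle pair had negative estimates, with a median of -0.26, and 3 of the 4 fibroblast arms positive ones, with a median of 0.04. The median of all 8 was -0.14, and that of all tested rows 0.002, with 270 of 537 estimates positive. For 6 of the 8 the 95% interval lay within 2-fold either way, against 31.5% of all tested rows and 87.8% of those with a mean of at least 1000 CPM. The exceptions were miR-143-3p and miR-214-5p, whose intervals reached 0.495-fold and 0.461-fold on the lower side.

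**Figure D2:**
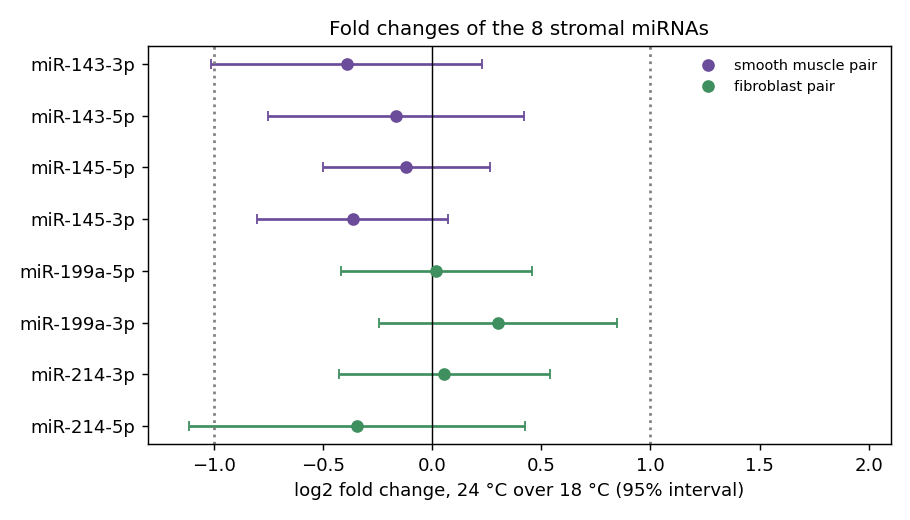
Log2 fold change of each member at 24 °C over 18 °C (x axis) with its 95% interval derived from the edgeR test, coloured by pair, with dotted lines at 2-fold either way. Each interval includes 0, and those of miR-143-3p (-1.01 to 0.23) and miR-214-5p (-1.12 to 0.43) cross the lower line.

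Summed over both arms and families, the smooth muscle pair outweighed the fibroblast pair in every fish. Its share of all counts was 6.84%, 4.41% and 6.38% in the control libraries and 4.55%, 5.43% and 3.44% in the heat libraries. The fibroblast pair took 1.28%, 1.11% and 1.27% in the control libraries and 1.42%, 1.08% and 1.44% in the heat libraries. The summed share of the fibroblast pair thus varied less between fish, but its single arms did not all vary less. In the control group the coefficients of variation in CPM were 20.3% for miR-199a-5p and 25.2% for miR-199a-3p. They were 11.1% for miR-214-3p and 33.1% for miR-214-5p. Those of the smooth muscle pair were 23.2% for miR-143-3p, 24.7% for miR-143-5p, 1.66% for miR-145-5p and 3.53% for miR-145-3p. Exact binomial 95% intervals of the smooth muscle share cover counting error only. They were 4.53% to 4.56% in heat replicate 1 and 4.39% to 4.43% in control replicate 2. These 2 intervals did not overlap, but they leave out variation between fish and between library preparations.

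The ratio of the smooth muscle sum to the fibroblast sum was 5.35, 3.96 and 5.003 in the control libraries and 3.20, 5.02 and 2.39 in the heat libraries. Heat replicate 2 was as high as the control fish, so the groups overlapped, while heat replicates 1 and 3 lay below all the others. On the log2 scale the balance averaged 2.24 ± 0.23 in control and 1.75 ± 0.54 in heat libraries (SD, n = 3 each), a difference of -0.49 beside a pooled SD of 0.41. No test was made of this sum over members. miR-143-3p alone made up 88.5% to 92.5% of the first sum and miR-199a 95.2% to 97.0% of the second. With the most abundant arm of each pair left out, the balance was 0.33 ± 0.29 and -0.15 ± 0.31, a difference of -0.47, and the groups still overlapped.

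**Figure D3:**
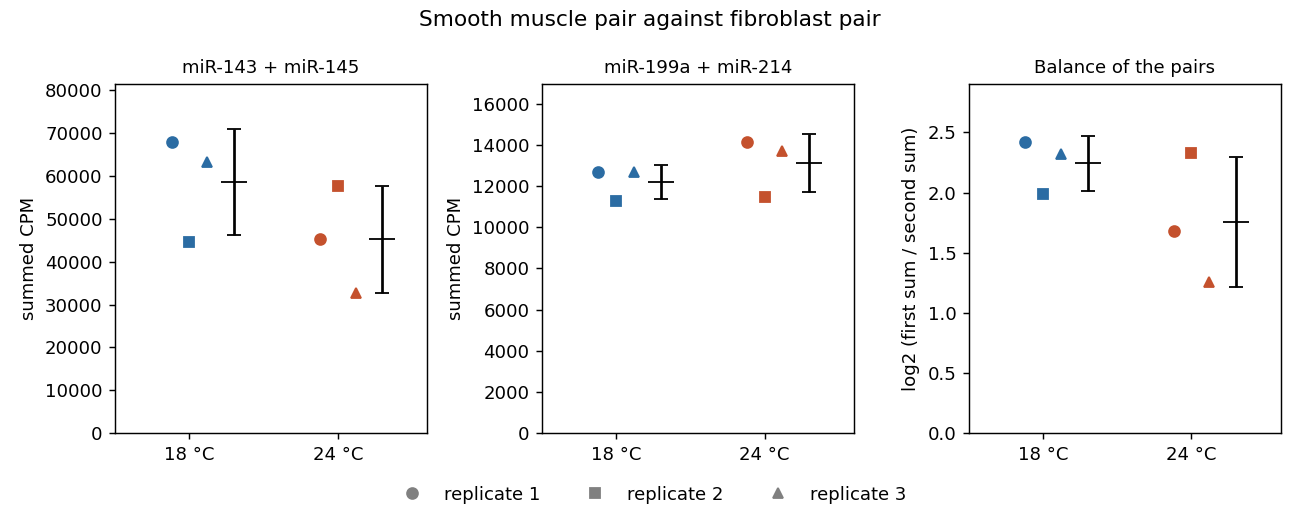
Summed CPM of miR-143 and miR-145, summed CPM of miR-199a and miR-214, and the log2 ratio of the first sum to the second (y axes from 0), by fish, with the mean and SD. Heat replicates 1 and 3 have the lowest ratios (3.20 and 2.39 on the linear scale), and heat replicate 2, at 5.02, lies among the control fish.

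Summed levels of the marker lists of other cells also differed between libraries. Heat replicate 3 was the lowest library in miR-143-3p, in both arms of miR-145 and in both arms of miR-214. Its sum of the striated muscle list (11 rows of miR-499, miR-1, miR-206 and miR-133) was the highest, at 2326 CPM. That sum was 1137 to 1594 CPM in the other heat libraries and 411.1 to 725.1 CPM in the controls. Heat replicate 3 also had the highest sum of the red cell list (2 rows, both arms of miR-144), 3052 CPM. Heat replicates 1 and 2 had 405.4 and 1604 CPM, and the controls ran from 382.7 to 869.9 CPM. Heat replicate 1, also low in the smooth muscle pair, thus lay inside the control range of the red cell list, and heat replicate 2, high in the pair, lay above it. The listed families miR-208, miR-451, miR-223 and miR-141 had no row in the table used here. Control replicate 2 had the lowest leukocyte sum, 9590.0 CPM, and the highest kidney tubule sum, 2993 CPM. The sum of the epithelial list (14 rows, led by miR-203a-3p) ran from 434.5 to 838.5 CPM at 18 °C and from 404.6 to 435.3 CPM at 24 °C. Of its 14 rows 7 could be tested. All 7 had negative estimates, as had the 4 arms of the smooth muscle pair, with a median log2 fold change of -0.91, and 0 passed. The part that the differences between libraries in these sums have in the miR-143-3p values was not tested. Without heat replicate 3 the balance of the pairs differed by -0.24 between the groups, and without control replicate 2 by -0.62.

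Within each pair, the ratio of the leading arms compares products of what is 1 transcript in mammals, and scaling between libraries cancels in it. miR-143-3p exceeded miR-145-5p by 20.4, 13.1 and 18.9-fold in the control libraries and by 12.7, 18.0 and 12.4-fold in the heat libraries. Control replicate 2 and heat replicates 1 and 3 had the low values, so both groups held low and high fish. The log2 ratio of miR-145-5p to miR-143-3p was -4.10 ± 0.34 at 18 °C and -3.82 ± 0.30 at 24 °C, a difference of 0.28 (two-sided exact permutation p = 0.2, in a design that cannot go below 0.1). Summing both arms of each family gave a smaller difference of 0.19 (exact permutation p = 0.6).

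miR-199a-5p exceeded miR-214-3p by 29.4, 17.6 and 30.9-fold in the control libraries and by 21.8, 22.0 and 32.5-fold in the heat libraries. Control replicate 2 was lowest and heat replicate 3 highest. The log2 ratio of miR-214-3p to miR-199a-5p was -4.65 ± 0.45 and -4.64 ± 0.33, a difference of 0.01 (two-sided exact permutation p = 1.0). With both arms of each family summed the difference was -0.22 (exact permutation p = 0.4). Benjamini-Hochberg adjustment over these 2 ratios of leading arms leaves them at 0.4 and 1.0.

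The arms of a hairpin are made together, and which strand is kept can differ between tissues. miR-143 was almost wholly a 3p miRNA, with 163 to 408 3p reads for each 5p read. miR-145 held 1.69, 1.61 and 1.78 5p reads per 3p read in the control libraries and 2.11, 1.82 and 2.13 in the heat libraries. Each heat library lay above each control library. Of the 79 hairpins with both arms counted, 11.4% did not overlap between the groups in either direction. The log2 ratio of 5p to 3p was 0.76 ± 0.07 and 1.01 ± 0.13 (SD, n = 3 each), and the difference of 0.25 ± 0.23 (SE) did not pass (limma adjusted p = 0.92).

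miR-199a held 3.34, 1.37 and 2.64 5p reads per 3p read in the control libraries and 1.57, 2.08 and 2.08 in the heat libraries. Control fish gave both the highest and the lowest value. For miR-214 the 3p arm was mostly ahead, with 1.16, 2.42 and 0.981 3p reads per 5p read in the control libraries and 1.83, 1.55 and 2.07 in the heat libraries, and control replicate 3 was the 1 library with slightly more 5p. Between the temperatures the log2 ratio of 5p to 3p differed by 0.27 ± 0.40 (SE) for miR-143, -0.28 ± 0.36 for miR-199a and -0.36 ± 0.36 for miR-214 (limma adjusted p from 0.92 to 0.96). None of the 4 hairpins passed in limma, where 0% of the 79 passed, and 0 of the 4 had an unadjusted p under 0.05, against 8.86% of the 79. Without control replicate 2 the miR-199a difference was -0.65 and that of miR-214 -0.76, and neither passed (limma adjusted p = 0.34 and 0.23).

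**Figure D4:**
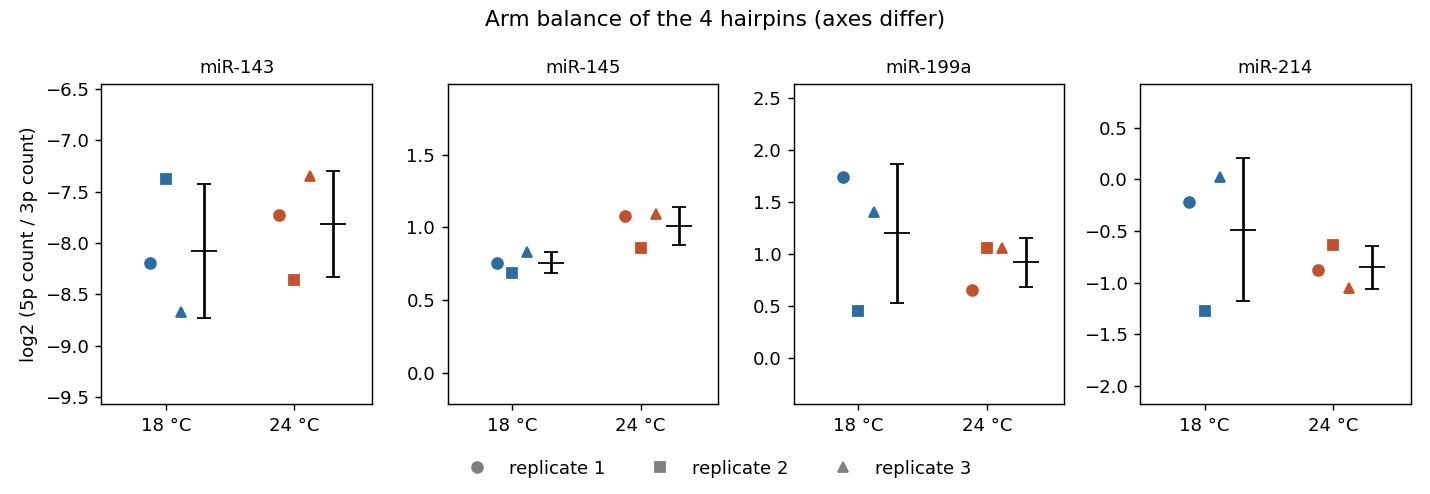
Log2 ratio of 5p to 3p counts (y axis, a different range in each panel) of the 4 hairpins by fish, with the mean and SD. miR-145 shows little spread and groups that do not overlap (0.76 ± 0.07 and 1.01 ± 0.13), and in the other hairpins control replicate 2 stands apart from control replicates 1 and 3.

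The 2 arms of miR-145 lay close together from fish to fish, while those of miR-143, miR-199a and miR-214 lay farther apart. Likeness was measured as the mean absolute difference, over the 6 libraries, between the deviations of 2 miRNAs from their own mean on the log2(CPM + 1) scale, so that 0 means the same pattern. Among the 28 pairs of members, miR-143-3p and miR-214-5p, from different transcripts, were among the closest at 0.14, beside both arms of miR-145 (0.13) and miR-145-5p with miR-214-3p (0.12). The measure is also small for miRNAs that vary little, and miR-145-5p deviated by at most 0.12 outside heat replicate 3 (-0.32). Small values that involve miR-145-5p thus need not mean a shared pattern. The 2 arms of miR-143 were far apart at 0.46, those of miR-214 at 0.39 and those of miR-199a at 0.34. The least alike were miR-143-3p and miR-199a-3p at 0.62. In control replicate 2, miR-143-3p, miR-199a-5p and miR-214-5p deviated by -0.21, -0.38 and -0.47, while miR-143-5p, miR-199a-3p and miR-214-3p deviated by 0.36, 0.23 and 0.14.

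**Figure D5:**
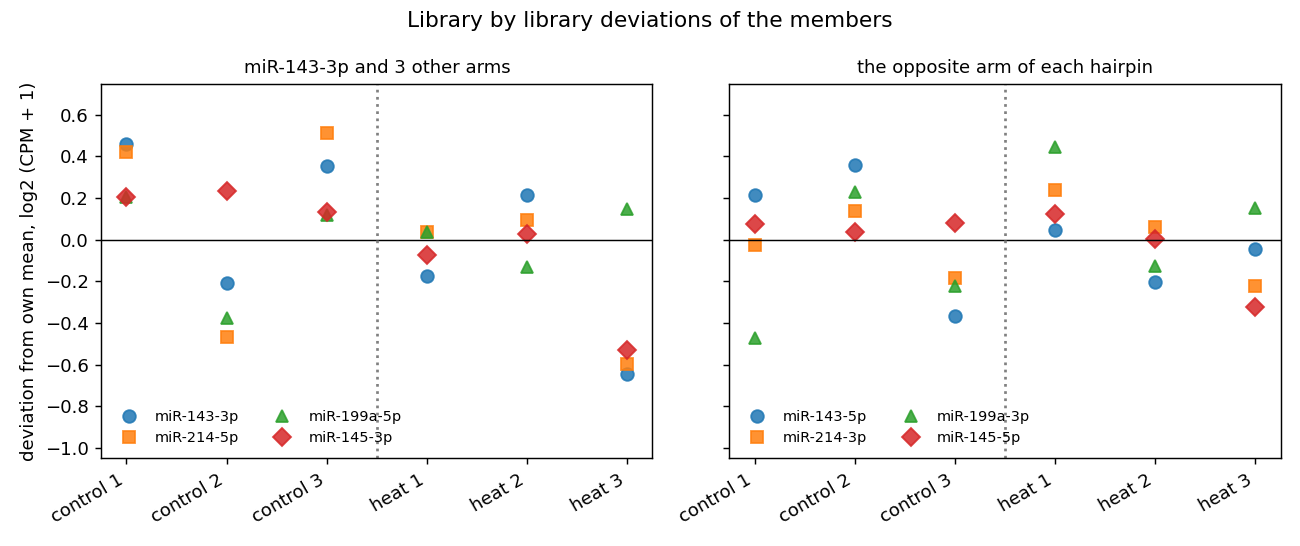
Deviation of each member from its own mean over the 6 libraries, on the log2(CPM + 1) scale (y axis), by library (x axis), with 1 arm of each hairpin on the left and the opposite arm on the right. The arms were assigned to the panels after their values were seen, and control replicate 2 shows 3 of the left arms below 0 (-0.21, -0.38 and -0.47) and their opposite arms above it.

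Outside the families, the annotated miRNA most like miR-143-3p among 217 with a mean of at least 10 CPM was miR-30d-5p, at a mean difference of 0.05, where a flat pattern would stand at 0.34 and the median of the 217 was 0.43. It was at 10088, 7064 and 9849 CPM in the control libraries and at 6486, 8395 and 4941 CPM in the heat libraries, with the lowest values again in heat replicates 3 and 1 and control replicate 2. Next came miR-7132b-3p (0.12), miR-455-5p (0.14), miR-146a-5p (0.17) and miR-10a-3p (0.20), over the same 6 libraries. Their log2 fold changes lay between -0.45 ± 0.24 for miR-30d-5p and -0.16 ± 0.27 for miR-10a-3p, and none passed (edgeR adjusted p from 0.63 to 0.92). All 5 share library and scaling with miR-143-3p. They were chosen by likeness to it over these same 6 libraries, with the group difference included. Their negative estimates and low values in the same libraries follow from that choice and are no separate result. Of the 217, 57 lay nearer to miR-143-3p than the flat pattern.

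Other families tied to stromal cells and matrix were miR-21, raised in fibrosis, miR-29, which represses collagens, the cartilage miRNA miR-140, and miR-152, miR-218 and miR-455, which lie in the introns of other genes. Of their 21 rows 18 could be tested, with 11 positive and 7 negative estimates and a median of 0.10, and 0 passed in either direction. miR-152-3p was at 3150.2, 4295 and 4108 CPM in the control libraries and at 4541, 4400.3 and 5875 CPM in the heat libraries. It was higher at 24 °C without overlap, as were 6.89% of all tested rows, with a log2 fold change of 0.36 ± 0.19 (edgeR adjusted p = 0.63). The leading rows of the other families were miR-21b-5p (0.11 ± 0.17), miR-29b-3p (0.42 ± 0.23), miR-140-3p (0.17 ± 0.19), miR-218-5p (-0.16 ± 0.43) and miR-455-5p (-0.33 ± 0.25), given as log2 fold changes, and the groups of these 5 overlapped.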

How the data were processed

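The deposited file gives whole read counts, per the file headers, for 1381 miRNA rows (392 annotated with Atlantic salmon names, 989 predicted). The authors' TPM columns are each count over its library's sum (largest difference 2.33e-10), with no length term. RNA was extracted with TRIzol and libraries made with the NEBNext small RNA kit, per the labels' protocols, and the submitters' processing notes name Bowtie. Neither the genome build nor the handling of reads that match several rows is given in the sources used here. No row is paired with a sequence, so paralogs under 1 name cannot be told apart, and adapter ligation can favour some miRNAs over others, which touches levels between miRNAs more than the same miRNA between libraries.

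The whole table of counts went into edgeR 4.0.16 (R 4.3.3): filterByExpr (minimum count 10, minimum total 15) left 537 rows, TMM scaled the libraries, a robust quasi-likelihood fit compared 24 with 18 °C, and Benjamini-Hochberg adjustment ran over the 537 with a threshold of 0.05. The fit takes the fish as replicate. Arm ratios were fitted with limma 3.58.1 on log2 ratios (0.5 added to each count; mean of at least 10 counts per arm). Both fits were tested on simulated data with planted changes far larger than the member estimates. That check does not show whether small changes would be found. Ratios used two-sided exact permutation tests from scipy 1.17.1. Intervals of shares are exact binomial and cover counting error only. No 2 libraries agreed within sampling noise (chi-square over degrees of freedom, 117 to 344). The members and lists were chosen with earlier results of these data known. Named rows were all members, the 5 annotated rows most like miR-143-3p and the leading row of each stromal family and cell type list. The leading rows of the other lists were miR-126-3p, miR-499a-5p (2.53 ± 0.25, log2 fold change, edgeR adjusted p = 0.0092), miR-144-5p (1.59 ± 0.70), miR-142b-3p (-0.14 ± 0.23), miR-203a-3p (-0.47 ± 0.24) and miR-204-5p (-0.62 ± 0.29), of which miR-499a-5p passed. A leading row need not stand for its list. The kidney tubule list, led by miR-204-5p, had 5 positive and 1 negative estimates among 6 tested rows (median 0.34). The leukocyte list, led by miR-142b-3p, had 4 positive and 2 negative ones among 6 (median 0.25). Alternatives were DESeq2 1.42.0 and other scalings, filters and fits, a replicate block and each library left out. Figures were drawn with matplotlib 3.10.9.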

Additional observations from a re-analysis of the deposited data

How the results depend on the processing

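The count of members past the threshold was 0 in each direction under all 19 alternatives. Of these, edgeR's newer quasi-likelihood method and the fit without robust estimation were added after seeing the data. Among all tested rows, at most 2 passed as higher and at most 3 as lower in any alternative, both with DESeq2. None passed with the replicate block or without control replicate 1, control replicate 3 or heat replicate 2. With so few rows passing, a count of 0 does not set the members apart from other rows. The smallest adjusted p of a member in any alternative was 0.53 (miR-143-3p, edgeR without control replicate 2). In that fit miR-143-3p and miR-214-5p had an unadjusted p under 0.05, with an edgeR adjusted p of 0.53 and 0.56 over 578 rows. Without heat replicate 2, miR-145-3p had an unadjusted p of 0.048 in edgeR (log2 fold change -0.49, adjusted p = 0.72 over 583 rows). The share of all tested rows with an unadjusted p under 0.05 was not counted in these fits. These values therefore do not set the members apart from other rows. With 1 library left out, miR-143-3p ran from -0.65 to -0.26, miR-214-5p from -0.68 to -0.22 and miR-145-3p from -0.49 to -0.26. With the replicate number as a block, 0 members and 0 arm ratios passed, the balance of the pairs differed by -0.49 (SD over the 3 numbers 0.74), and the log2 ratios differed by 0.28 and 0.01. Deviations of same-numbered fish correlated at -0.06, -0.20 and -0.17 across miRNAs, which gives no sign of pairing by number. The balance of the pairs ran from -0.77 to -0.24 with 1 library left out and was -0.28 as a mean of log2 CPM. As that mean, the balance was 1.21 ± 0.13 in control and 0.92 ± 0.16 in heat libraries (SD, n = 3 each). Both the difference and the spread were thus smaller than in the main form, and the groups again overlapped. The ratio of miR-145-5p to miR-143-3p ran from 0.15 to 0.47 with 1 library left out and was 0.19 with all rows of each family summed. That of miR-214-3p to miR-199a-5p turned sign: it ran from -0.14 to 0.27 with 1 library left out and was -0.22 with all rows of each family summed. Arm ratios past the threshold on the adjusted p were 0 throughout. Without control replicate 2, those of miR-199a and miR-214 had an unadjusted p under 0.05 in limma (adjusted p = 0.34 and 0.23 over 81 hairpins). The share of all hairpins under 0.05 was not counted in that fit, so this does not set the member hairpins apart. Among the values of single members and hairpins 12 had the other sign, none of them a call. miR-199a-5p was at -0.0022 with DESeq2 size factors and with DESeq2, -0.023 without a filter, -0.013 with a mean of at least 50 counts, -0.019 with annotated rows only, -0.0064 with copies summed and from -0.21 to 0.13 with 1 library left out. miR-214-3p ran from -0.071 to 0.13 and the miR-143 arm ratio from -0.026 to 0.62 with 1 library left out. The cause of these turns was not tested. Depth does not limit the members, whose lowest count was 544 (counting error 4.29%).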
